A study of Rattus norvegicus with 20 samples.

Results

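The comparison described here is diclofenac at the highest concentration of the study for 24 h against no treatment, in cultured heart cells of newborn rats. Its arrays were chosen by their titles: 3 arrays titled as diclofenac at reference concentration 1 for 24 h and 2 titled as non-treated, which makes 5 of the 20 arrays in the series. The other 15 arrays carry the same drug at 1, 1/5 or 1/25 of the reference concentration for 6 h, or at 1/5 or 1/25 for 24 h, with 3 arrays in each group. All cells were primary cultures from neonatal rat heart grown for a day in DMEM, and no group carries a transgene or another agent. No label states the molar dose behind concentration 1 or when the untreated cultures were collected, so hours in culture and treatment cannot be told apart. The series text speaks of 3 replicates in each group, and 2 untreated arrays were analysed here. Whether the arrays of a group hold RNA of separate cultures is not stated, and the p-values then reflect array-to-array spread that may be technical.

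Diclofenac is a nonsteroidal anti-inflammatory drug. It blocks the cyclooxygenases encoded by Ptgs1 and Ptgs2, which turn arachidonic acid into the precursor of prostaglandins, prostacyclin and thromboxane. Cultures from the newborn heart hold beating cardiomyocytes together with fibroblasts, smooth muscle, endothelial and blood-derived cells, and a level measured on RNA from all of them is an average over these cell types.

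Each measurement below is the brightness of a 60-base probe. It is given as the level, the log2 of the processed signal minus the 75th percentile of the array, so 0 is a bright probe and values near -8 are at background. The probes of 6 genes are shown because the comparison turns on them: the transcript that passed the test, the genes of an interferon-induced GTPase and of 2 aldo-keto reductases, and 2 vessel genes. Positions are those of the array files on build rn3, and each probe is printed 5′ to 3′.
AI168935, chr10:78465959-78466018, minus strand: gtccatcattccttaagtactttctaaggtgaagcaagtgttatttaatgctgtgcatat
Igtp, chr10:43865662-43865721, plus strand: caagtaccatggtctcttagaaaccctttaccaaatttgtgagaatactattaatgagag
Akr1c14, chr17:77327921-77327980, minus strand: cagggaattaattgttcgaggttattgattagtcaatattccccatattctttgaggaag
Akr1c15, chr17:77352210-77352269, minus strand: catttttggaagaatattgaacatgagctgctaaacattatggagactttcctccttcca
Thbd, chr3:137064542-137064601, minus strand: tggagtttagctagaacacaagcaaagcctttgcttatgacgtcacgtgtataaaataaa
Flt1, chr12:8065567-8065626, plus strand: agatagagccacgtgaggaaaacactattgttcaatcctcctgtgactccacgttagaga
AI168935 is an expressed sequence tag cloned from rat kidney, with no gene name in the files. The probes of the neighbouring aldo-keto reductase genes Akr1c14 and Akr1c15 share no run longer than 6 bases, and their best ungapped alignment over at least 30 bases matched 17 of 38.

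One transcript of 30504 genes passed the test. AI168935 stood at -4.27 and -3.58 in the untreated arrays and at -7.67, -7.44 and -8.60 in the treated arrays. It was well above background on both untreated arrays and on none of the treated arrays, and the groups did not overlap. Its level fell by 3.98 ± 0.55 on the log2 scale (SE, limma adjusted p = 0.0472). Full concentration at 24 h was at least 2.35-fold lower than at 6 h, where 2 of 3 arrays were well above background (adjusted p = 0.0316). At 24 h it was at background at every concentration, so no difference between concentrations is given. Because the treated signal lay at background this is a bound, at least 5.76-fold lower. Such bounds take, for a dim array, the higher of the probe's own value and the dimmest value of that array still counted as well above background. The share of genes past an adjusted p of 0.05 was thus 0.00328%, and the call ended under 15 of the 20 other settings in which the probe could be tested, with adjusted p from 4.79e-05 to 0.551. That lowest value came with array weights, a setting that kept the call although its default estimate did not converge.

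At an unadjusted p under 0.05 stood 1391 genes, 4.56% of those tested, of which 576 were higher (1.89%) and 815 lower (2.67%). This split turned with the scaling: over measured genes it was 576 and 810, against 1403 and 787 after quantile normalization and 764 and 566 on the array median. In 4286 genes (14.1%) every treated array lay above both untreated arrays, and in 5406 genes (17.7%) every treated array lay below both. Outside the 2510 genes whose probes were saturated on all 5 arrays and 75 that were at background in both groups, 1040 genes had a level more than 1 higher on the log2 scale and 2824 more than 1 lower. The lower share of these, 73.1%, depended on the scaling. It was 48.3% when arrays were centred on their median and 51.6% after quantile normalization, and the median change of all measured genes was -0.10, 0.12 and 0.04 in that order. Changes below are relative to the 75th percentile, and small ones near these shifts have no settled sign.

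Array quality was similar in the groups compared. Between 82.5% and 84.7% of spots were well above background on the untreated arrays and between 82.5% and 85.9% on the treated arrays. The 2 untreated arrays correlated at r = 0.969 across genes, and the treated arrays at 0.918 to 0.966. The second treated array stood apart: it correlated at 0.910 and 0.908 with the untreated arrays, against 0.942 to 0.957 for the other treated arrays, and was the farthest of the 3 from the untreated mean in 58.1% of genes. Untreated arrays were on slide 1 and scanned on day 1, and the treated arrays on slide 4 on day 2, so slide and treatment cannot be told apart. The remaining array of slide 4, diclofenac 1/25 for 6 h, lay nearer to the untreated than to the treated mean in 68.1% of genes and in 14 of the 21 genes named by their p below.

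In other groups 4 arrays had few spots well above background (64.1% to 76.5%). The median SE of the change was 0.552 with all arrays and 0.359 without these 4. Without them, an alternative chosen after seeing the data, 59 genes passed the threshold, 0.193% of those tested, with 26 higher (0.0852%) and 33 lower (0.108%). Of the 59, 26 had a gene symbol, 9 of them higher. Some others lay beside another called probe, as TC527072 beside AI168935, so the 59 need not all be separate genes. The values on the 5 arrays are the same in both fits. AI168935 was among the 59, and for some genes below the adjusted p without those 4 arrays is given beside that with all arrays. Counts past the threshold and single adjusted p-values below are from all arrays unless stated.

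**Figure D1:**
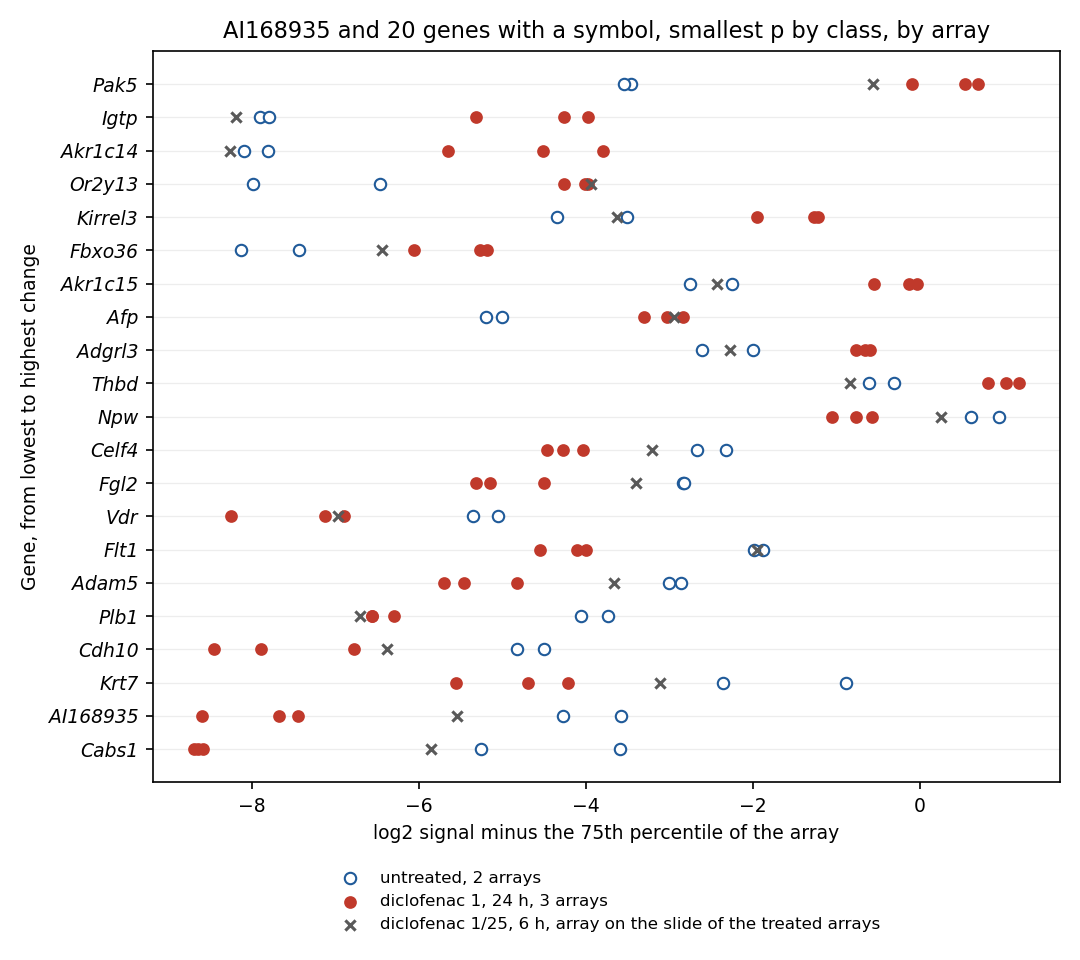
Levels (log2 signal minus the 75th percentile of the array) of AI168935 and the 20 genes with the smallest p in their class among those with a symbol, on each of the 2 untreated arrays (open circles), the 3 arrays of diclofenac 1 for 24 h (filled circles) and the diclofenac 1/25, 6 h array of the same slide (crosses). In every gene shown the treated arrays lie on one side of both untreated arrays, which the choice of genes required. Igtp and Akr1c14 lie near -8 on the untreated arrays and between -5.66 and -3.80 on the treated arrays.

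Igtp, an interferon-gamma-induced GTPase that in mouse protects cells against intracellular parasites, gave the smallest p of the higher genes. Its level was -7.91 and -7.80 on the untreated arrays and -3.98, -4.26 and -5.32 on the treated arrays. The probe was well above background on all 3 treated arrays and on neither untreated array, and the groups lay far apart. Genes of its class were chosen for this split and for groups that do not overlap. The difference was 3.33 ± 0.49, at least 2.84-fold higher, with an adjusted p of 0.0525 over all arrays and 0.00482 without the 4 low ones (0.000104 to 0.737 over all alternatives). The lowest of these values came with array weights, whose default estimate did not converge. On the slide of the treated arrays the 1/25, 6 h array stood at -8.20, as low as the untreated cultures.

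Igtp was well above background on none of the arrays of full concentration at 6 h or of the lower concentrations at 24 h, and it entered the test through the treated arrays, where it was high. At 24 h its level was -7.87, -8.26 and -6.61 at 1/5 and -7.73, -8.56 and -8.50 at 1/25. The treated arrays were at least 2.99-fold above 1/25 at 24 h (adjusted p = 0.00543) and at least 3.49-fold above full concentration at 6 h (adjusted p = 0.00325). Against 1/5 at 24 h the bound was at least 1.99-fold with an adjusted p of 0.0787, and 2 of those 3 arrays were among the weak ones, the array at -6.61 included. Every other array of the series lay at or below -6.61.

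The interferon list as a whole was not called. Of 30 tested genes of the interferon list, 0 passed the threshold by limma with all arrays. At an unadjusted p under 0.05 stood 2, Igtp and Rsad2, both higher (6.67%, against 1.89% of all genes). The median change of the 29 measured members was -0.30, against -0.10 for all genes, with 7 members above and 6 below without overlap, beside 14.1% and 17.7% of all genes. Rsad2, the antiviral protein viperin, stood at -5.47 and -5.80 untreated and at -4.93, -3.56 and -4.56 treated (change 1.29 ± 0.44, adjusted p = 0.941). Of the members below, chosen after their values were seen, none passed the threshold. Irf7, a transcription factor of the interferon response, differed by 1.16 ± 0.89 and Ifit1, an antiviral protein, by 0.55 ± 0.46. Irf1, another transcription factor of the response, differed by -0.18 ± 0.38. The antiviral genes Mx1 and Oas1a lay lower by 0.86 ± 0.46 and 0.70 ± 0.40 without overlap, and Irgm, another GTPase of the Igtp family, differed by 0.47 ± 0.42.

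The promoter of Igtp is shown because Igtp is the interferon gene that stood out. RefSeq's window on build GRCr8 covers 250 bases before to 50 bases after the gene start, chr10:42874797-42875096 on the plus strand. Capitals mark the gamma-activated motif TTCNNNGAA, from base 137, and the interferon-stimulated response motif, GAAA followed by any 2 bases and GAAA, from base 148, which do not overlap.
Igtp promoter: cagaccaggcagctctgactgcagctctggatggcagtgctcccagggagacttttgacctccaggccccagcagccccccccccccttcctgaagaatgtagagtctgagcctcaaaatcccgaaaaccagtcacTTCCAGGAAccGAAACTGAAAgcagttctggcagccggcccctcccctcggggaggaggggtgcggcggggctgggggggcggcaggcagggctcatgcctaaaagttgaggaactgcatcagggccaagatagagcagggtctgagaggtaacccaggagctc
Searched on both strands, TTCNNNGAA was present in 8.87% and the response motif in 3.92% of the 33469 promoter windows. Of 25 interferon list genes with a window, 8 held the first and 14 the second motif, Rsad2 among the latter.

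Akr1c14 and Akr1c15 are aldo-keto reductases on chromosome 17. Akr1c14 encodes the rat 3-alpha-hydroxysteroid dehydrogenase, which reduces steroid hormones and is itself known to be inhibited by nonsteroidal anti-inflammatory drugs. Its level was -7.81 and -8.10 untreated and -5.66, -3.80 and -4.52 treated. It was at background on both untreated arrays and above it on all treated arrays, with no overlap, as the choice of genes required. The difference was 3.30 ± 0.76, at least 2.58-fold higher, with an adjusted p of 0.333 with all arrays and 0.0165 without the 4 low ones. Akr1c14 entered the test only through the full and 1/25 concentration groups at 24 h, where it was high. Akr1c15, measured on all 5 arrays, stood at -2.25 and -2.76 untreated and at -0.55, -0.04 and -0.13 treated. The treated arrays lay close together and well above the untreated pair. That is a 4.81-fold difference (2.26 ± 0.44 on the log2 scale, adjusted p = 0.184 with all arrays and 0.0061 without the 4 low ones).

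Akr1c14 ranged from -8.43 to -7.66 over all 6 h arrays and stood at 24 h at -3.10, -6.06 and -6.70 for 1/5 and at -4.07, -5.30 and -4.85 for 1/25. At 1/5 the arrays thus lay on both sides of the full-concentration arrays, and 1 of the 3 was well above background. At 24 h Akr1c15 ranged from -0.10 to 1.78 at 1/5 and from -0.80 to -0.24 at 1/25, and at 6 h from -2.56 to -1.68 over all concentrations. Full concentration at 24 h exceeded 6 h by 2.29 for Akr1c15 (adjusted p = 0.0255) and was at least 3.17-fold higher for Akr1c14, which was at background on all 3 full-concentration arrays at 6 h (adjusted p = 0.0433). Against 1/25 at 24 h the differences were 0.26 (SE 0.39) and 0.08 (SE 0.68) in that order (adjusted p = 0.916 and 0.988).

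Other reductases lay on both sides of 0. Akr1c1 differed by 1.68 ± 0.67 and Akr7a3, an aflatoxin aldehyde reductase, by 1.84 ± 0.97, while Akr1c12l1 differed by -1.85 ± 0.86, and none of these passed the threshold. Among 27 tested genes of the drug metabolism list 0 passed by limma. At an unadjusted p under 0.05 stood 3, all higher (11.1%, against 1.89% of all genes): Gsta1, Cyp2j3 and Cyp2j4. Of this list 9 members (33.3%, against 14.1% of all genes) lay above without overlap and 7 (25.9%, against 17.7%) below, with a median change of 0.07. Gsta1, a glutathione transferase, stood at -1.31 and -1.14 untreated and at 0.15, 0.76 and 0.60 treated (change 1.73 ± 0.71, adjusted p = 0.999 with all arrays and 0.0594 without the 4 low ones). Cyp1a1, the xenobiotic-oxidizing enzyme controlled by the aryl hydrocarbon receptor, stood at -0.86 and -1.28 untreated and at -4.71, -2.60 and -4.14 treated. Its groups did not overlap, but the change of -2.75 ± 1.30 had an adjusted p of 0.999.

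Thbd and Flt1 are endothelial genes that lay on opposite sides of the untreated level. Thbd encodes thrombomodulin, the thrombin receptor that turns on the protein C anticoagulant pathway. It stood at -0.61 and -0.31 untreated and at 1.18, 0.81 and 1.03 treated, a 2.77-fold difference (1.47 ± 0.38, adjusted p = 0.533 with all arrays and 0.0384 without the 4 low ones). Flt1, a receptor for vascular endothelial growth factor, stood at -1.88 and -1.99 untreated and at -4.11, -4.55 and -4.01 treated. The treated arrays were 4.88-fold lower (-2.29 ± 0.51, adjusted p = 0.318 and 0.0422). Neither gene overlapped between groups, which the choice of genes required.

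The contrast between 24 h and 6 h at full concentration passed the threshold for both genes, by 1.97 for Thbd (adjusted p = 0.0255) and by -2.57 for Flt1 (adjusted p = 0.0311). Thbd ranged from -1.17 to -0.48 at 6 h and from 0.66 to 2.01 at 1/5 and 1/25 for 24 h. Flt1 ranged from -2.94 to -1.24 at 6 h and from -6.13 to -3.14 at the lower concentrations for 24 h. The 6 h array on the slide of the treated arrays stood at -0.84 for Thbd and -1.96 for Flt1, on the untreated side. Of the 12 endothelial markers tested, these 2 included, 2 lay above (Thbd and Kdr) and 2 below (Flt1 and Cdh5) without overlap. That is 16.7% above and 16.7% below, near the 14.1% and 17.7% of all genes. Cdh5, the endothelial cadherin, differed by -0.92 ± 0.52, Pecam1 by 0.45 ± 0.76 and Kdr, the main growth factor receptor of vessels, by 0.30 ± 0.46.

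**Figure D2:**
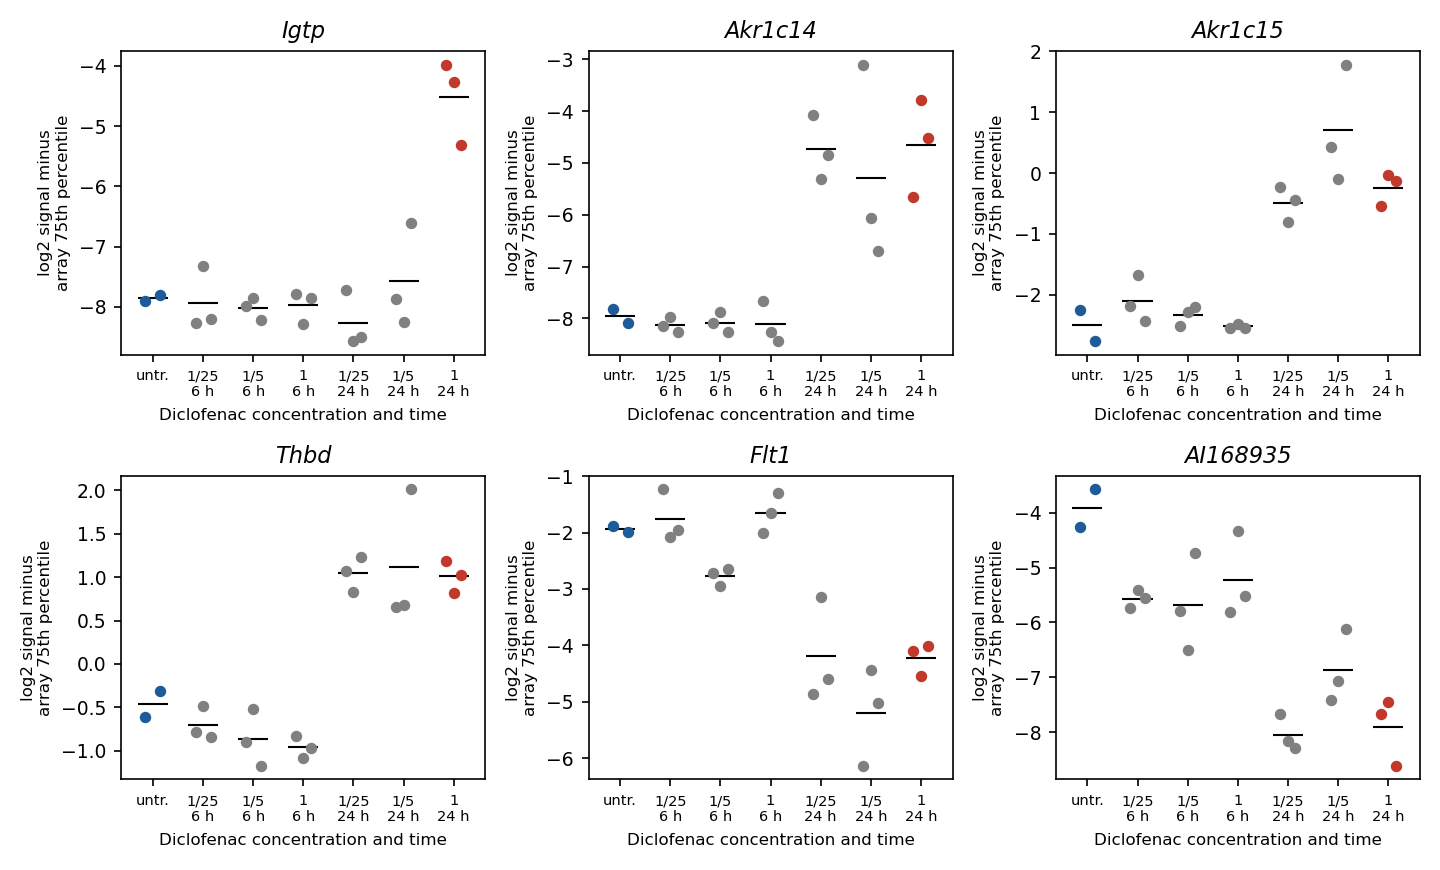
Levels of 6 genes on all 20 arrays, by diclofenac concentration and time (log2 signal minus the 75th percentile of the array; points are arrays, bars are group means, each axis has its own range). Igtp lies between -5.32 and -3.98 on the 3 arrays of full concentration at 24 h and at or below -6.61 elsewhere, whereas Akr1c14, Akr1c15, Thbd and Flt1 separate all 24 h groups from untreated and 6 h groups.

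Among genes with a symbol, the remaining higher ones with the smallest p, measured on all 5 arrays, were Kirrel3, Adgrl3, Pak5 and Afp. Kirrel3, a cell adhesion protein of the immunoglobulin family, stood at -3.51 and -4.35 untreated and at -1.22, -1.95 and -1.27 treated (2.45 ± 0.43, adjusted p = 0.155 with all arrays and 0.0356 without the 4 low ones). It was the higher gene called after quantile normalization and after centring on the array median. Adgrl3, the adhesion receptor latrophilin 3, differed by 1.63 ± 0.43, Pak5, a p21-activated kinase, by 3.88 ± 1.05, and Afp, a serum protein of the fetus, by 2.05 ± 0.57. For Pak5, Afp, Or2y13 and Fbxo36 the 1/25, 6 h array of the same slide lay nearer to the treated arrays, at -0.56, -2.95, -3.94 and -6.44, and the part of the slide in these differences was not tested. The olfactory receptor gene Or2y13 and Fbxo36, an F-box protein, were at background untreated and at least 3.84-fold and 1.43-fold higher treated. For Or2y13 the adjusted p was 0.364 with all arrays and 0.0417 without the 4 low ones.

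Among genes with a symbol, the lower ones with the smallest p and measurable on all 5 arrays were Adam5, Npw, Flt1, Krt7, Celf4 and Fgl2. Adam5, a metalloprotease-family protein best known from sperm, stood at -2.86 and -3.01 untreated and at -5.70, -4.83 and -5.46 treated. The groups were well apart, at -2.40 ± 0.37 (adjusted p = 0.0525 with all arrays and 0.0165 without the 4 low ones). Npw, the neuropeptide W precursor, stood at 0.61 and 0.95 untreated and at -0.58, -1.05 and -0.77 treated (-1.58 ± 0.34, adjusted p = 0.266 and 0.0624). Fgl2, a prothrombinase, differed by -2.16 ± 0.50 (adjusted p = 0.333 and 0.0374), and Celf4, an RNA-binding splicing regulator, by -1.76 ± 0.40 (adjusted p = 0.333 and 0.0422). Krt7, a keratin of simple epithelia, differed by -3.20 ± 0.73, and its untreated arrays lay apart, at -0.89 and -2.36. Plb1, a phospholipase, Cdh10, a cadherin, Vdr, the vitamin D receptor, and Cabs1, a spermatid protein, were at background when treated and at least 5.71, 3.46, 2.37 and 4.08-fold lower. The adjusted p with all arrays was 0.155 for Plb1, 0.162 for Cdh10 and 0.259 for Cabs1. Without the 4 low ones it was 0.0165, 0.0213 and 0.0308 in that order. The 1/25, 6 h array of the same slide stood on the treated side for Plb1, at -6.71, for Vdr, at -6.98, and for Cdh10, at -6.39.

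Further genes among the 59 were outside the naming rule and were chosen after their values were seen. Il33, an alarm cytokine of stromal and endothelial cells, stood at 1.16 and 0.89 untreated and at -1.20, -0.96 and -0.91 treated (adjusted p = 0.623 with all arrays and 0.00482 without the 4 low ones). Clec14a, an endothelial lectin, stood at 0.65 and 0.78 untreated and at -1.53, -1.51 and -1.54 treated (adjusted p = 0.766 and 0.0165). Angpt1, the ligand of the endothelial receptor Tek, stood at -4.63 and -4.35 untreated and at -2.76, -2.70 and -2.66 treated (adjusted p = 0.999 and 0.0183). In each gene the arrays of a group lay close together and the groups did not overlap. Their calls rest on leaving out arrays of other groups.

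The drug's own targets gave no call. Ptgs2, the inducible cyclooxygenase, stood at -1.67 and -1.77 untreated and at -2.69, -3.25 and -3.07 treated. The groups did not overlap, and the change was -1.28 ± 0.68 (adjusted p = 0.999 with all arrays and 0.0752 without the 4 low ones). Ptgs1, the constitutive form, stood at 1.79 and 1.48 untreated and at 1.00, 1.05 and 1.33 treated (-0.51 ± 0.63, adjusted p = 0.999). Of the 20 tested genes of prostanoid and leukotriene metabolism 0 passed the threshold, and 0 reached an unadjusted p under 0.05. Without overlap 6 of the 20 lay lower (30%, against 17.7% of all genes) and 2 higher (10%, against 14.1%). Of the lower ones 3 were receptors, the prostaglandin E receptors Ptger1 (-1.71 ± 0.91) and Ptger2 (-0.72 ± 0.68) and the thromboxane receptor Tbxa2r (-1.42 ± 1.01). The synthases Ptgis and Ptges differed by -0.18 ± 0.78 and -0.24 ± 0.35.

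Heart muscle genes gave no call. Of 22 tested contractile genes 0 passed, 4 lay lower without overlap (18.2%, against 17.7% of all genes) and 0 higher, and 4 of the 20 measured were above 0, with a median change of -0.36 against -0.10 for all genes. Ckm, the muscle creatine kinase, stood at 0.02 ± 0.39 untreated (SD, n = 2) and at -1.58 ± 0.59 treated (SD, n = 3), without overlap (-1.60 ± 0.56, adjusted p = 0.957). Myh6 and Myh7, the alpha and beta heavy chains of myosin, differed by -0.63 ± 0.93 and 0.16 ± 0.81, and Nppa, the atrial natriuretic peptide, by 0.05 ± 0.84. Nppb, the B-type natriuretic peptide, the calcium pump gene Atp2a2 and the collagen gene Col1a1 were saturated on all 5 arrays, so no fold is given. The median level of the saturated genes ran from 1.56 to 2.18 over the treated arrays and was 1.85 and 2.05 on the untreated arrays.

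Matrix lists held members on both sides of 0. Of 27 tested extracellular matrix genes 3 were lower at an unadjusted p under 0.05 (Col5a1, Col12a1 and Lamb1), 11.1% against 2.67% of all genes, and 0 passed with all arrays. Without the 4 low ones Col12a1 passed (adjusted p = 0.0213). The median change of the list was -0.22, and it was -0.00 on the array median. Col5a1, a chain of type V collagen, stood at 1.59 and 1.22 untreated and at 0.12, -1.09 and -0.37 treated (-1.86 ± 0.60, adjusted p = 0.823). In the list of matrix turnover and TGF-beta signalling 4 of 34 (11.8%) were lower at an unadjusted p under 0.05 and 0 passed. Of its 29 measured genes 14 were above 0, with a median of -0.03, which turned to 0.18 on the array median. Of the 34 tested, 2 lay higher and 8 lower without overlap (5.88% and 23.5%, against 14.1% and 17.7% of all genes). Mmp3, the protease stromelysin, differed by -1.98 ± 0.55 and Plaur, the urokinase receptor, by -1.95 ± 0.54 (both adjusted p = 0.627). All 9 tested smooth muscle and pericyte markers were below 0, with a median of -0.67. Of these 5 lay lower without overlap (55.6%, against 17.7% of all genes) and 0 higher (0%, against 14.1%). Against full concentration at 6 h the median difference of the 9 markers was -0.77 (all genes -0.14). Against 1/5 and 1/25 at 24 h it was 0.28 and 0.13 (all genes 0.08 and 0.13). The summed level of the 9 markers was 9.74 to 10.5 times the array's 75th percentile untreated and 6.32 to 7.05 times treated, and all 9 were well above background on every array. In RNA from mixed cells, fewer cells of a type and less RNA per cell cannot be told apart, and the part of smooth muscle cells in the lower matrix levels was not tested. Cnn1, the smooth muscle protein calponin, stood at 0.48 and 0.59 untreated and at -0.40, -1.95 and -1.21 treated (-1.73 ± 0.67, adjusted p = 0.999).

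**Figure D3:**
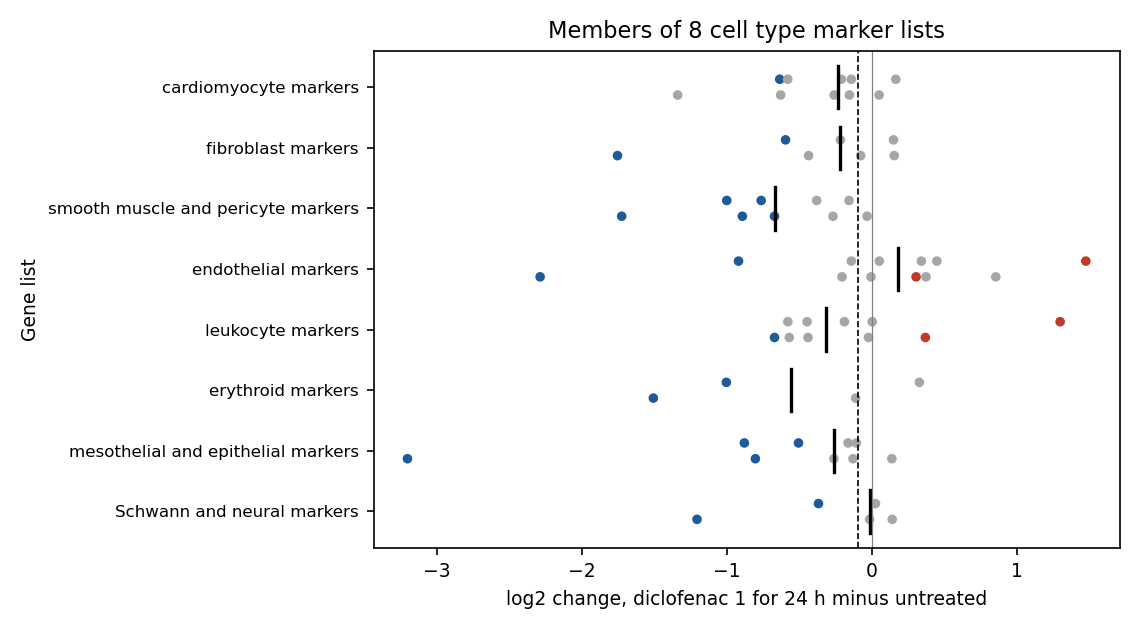
Change on the log2 scale of each measured member of 8 cell type marker lists (diclofenac 1 for 24 h minus untreated; black bar, list median; dashed line, median of all genes at -0.10; red, all treated arrays above both untreated arrays; blue, all below; grey, groups overlap). All smooth muscle and pericyte markers lie below 0, and no list member passed an adjusted p of 0.05 with all arrays.

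The labels give the cell type as cardiomyocyte, and markers of other heart cells were present as well. All 11 tested cardiomyocyte markers were well above background in both groups, with a summed level of 16.7 to 20.8 untreated and 13.6 to 18.6 treated, and fibroblast markers summed to 15.4 to 17.9 and 11.2 to 15.7. Endothelial markers summed to 7.37 to 7.61 untreated and 7.78 to 10.3 treated. Leukocyte markers summed to 5.19 to 5.41 and 4.30 to 5.59, with 3 of 10 above 0 and a median change of -0.32. Erythroid markers were at 1.03 to 1.14 and 0.494 to 0.746, and mesothelial and epithelial markers at 2.72 to 3.89 and 2.18 to 2.53. Schwann cell and neural markers summed to 1.99 to 2.21 and 1.66 to 2.08. Ptprc, the pan-leukocyte antigen CD45, stood at -0.37 and -0.77 untreated and at 0.72, 0.67 and 0.80 treated (1.29 ± 0.41, adjusted p = 0.809), while the macrophage markers Cd68 and Cd163 differed by 0.37 ± 0.50 and -0.03 ± 0.34.

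Among the 25 pathway lists as a whole, 612 of 681 genes were tested and 0 passed the threshold, while 9 were higher and 17 lower at an unadjusted p under 0.05 (1.47% and 2.78%, against 1.89% and 2.67% of all genes). Without overlap stood 65 higher and 140 lower (10.6% and 22.9%, against 14.1% and 17.7%). The list median was below 0 in 23 of the 25 lists, and in 13 it took the opposite sign under another scaling. Of the fatty acid list 17 of 27 measured genes were above 0, with a median of 0.18, which stayed above 0 under all scalings. Changes in this list ran from -1.57 to 0.89. Of its 29 tested genes 3 lay higher and 4 lower without overlap (10.3% and 13.8%, against 14.1% and 17.7% of all genes). Ech1, an enzyme of unsaturated fatty acid breakdown, differed by 0.89 ± 0.37 and Cpt1b, the muscle carnitine palmitoyltransferase, by 0.66 ± 0.51. In the chemokine list 4 of 22 were lower at an unadjusted p under 0.05 (18.2%, against 2.67% of all genes) and 0 higher (0%, against 1.89%). Its median change was -0.21, and 0.004 on the array median. Ccl2, a monocyte attractant and 1 of the 4, stood at -3.75 and -3.07 untreated and at -5.45, -5.63 and -5.81 treated (-2.22 ± 0.91, adjusted p = 0.999). Rgs4, an inhibitor of G protein signalling, differed by 1.91 ± 0.63 (adjusted p = 0.87), and Bmal1, a core clock activator, by 0.84 ± 0.31 (adjusted p = 0.997). These were the highest changes of the neurohumoral and circadian lists, whose medians were both -0.40. Above 0 were 4 of 24 neurohumoral and 6 of 17 circadian genes. Without overlap 9 neurohumoral genes lay lower and 3 higher (37.5% and 12.5%), and 2 circadian genes lay on each side (11.8%). The stress genes Hmox1, Atf3, Ddit3 and Cdkn1a gave 0.09 ± 0.45, 0.44 ± 0.52, 0.11 ± 0.63 and -0.22 ± 0.43 (Cdkn1a was saturated on 4 of the 5 arrays), and Hspa1a, an inducible heat shock protein, gave -1.20 ± 0.76. In the list of integrated and endoplasmic reticulum stress 0 of 28 tested genes passed. Without overlap 9 lay lower and 1 higher (32.1% and 3.57%, against 17.7% and 14.1% of all genes). The median change of that list was -0.27 and stayed below 0 under all scalings.

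**Figure D4:**
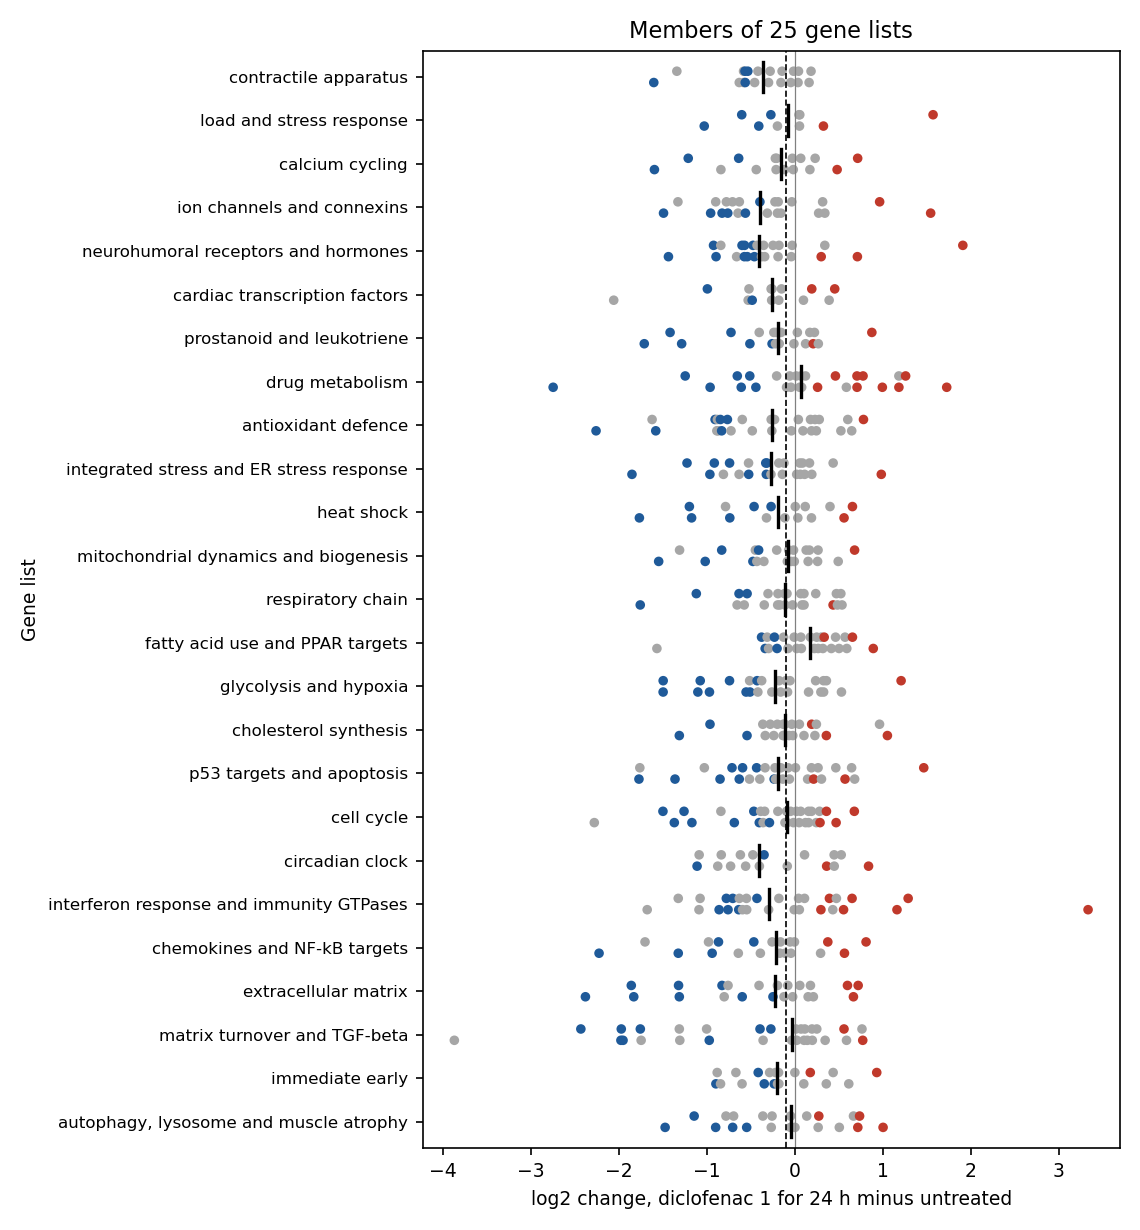
Change on the log2 scale of each measured member of 25 gene lists (diclofenac 1 for 24 h minus untreated; black bar, list median; dashed line, median of all genes at -0.10; red, all treated arrays above both untreated arrays; blue, all below; grey, groups overlap). The list medians lie between -0.40 and 0.18, and the point at 3.33 is Igtp, whose untreated signal was at background (at least 2.84-fold).

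Across all genes, full concentration at 24 h was tested against 3 other treated groups. Against full concentration at 6 h 71 genes passed (0.233%), 17 higher (0.0557%) and 54 lower (0.177%). Against 1/25 at 24 h 1 gene passed (0.00328%), which was Igtp. Against 1/5 at 24 h 0 passed by limma (0%), with 6569 genes at an unadjusted p under 0.05, a group that holds 2 of the 4 weak arrays. A p that misses the threshold does not show that concentrations act alike, and for Thbd the difference between full and 1/25 concentration at 24 h was -0.04 with an SE of 0.34.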

How the data were processed

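Total RNA was labelled with Cy3 and hybridised to 20 1-colour rat arrays. Per the file headers, the deposited scanner values are intensity after background subtraction and detrending by Feature Extraction 9.5.3.1, not scaled between arrays. The authors' deposited table holds a ratio, checked here as signal over array median over the mean of the untreated arrays (99.8% of values within 0.05 log2), and served as an alternative. The log2 signal minus the array's 75th percentile was used. Spots with outlier marks were left out, saturated spots kept. A probe was kept where all arrays of some group had it well above background (35065 of 41012), and the brightest stood for its gene (30504 genes). Names were updated from RefSeq by accession (10735 probes), symbol (5571) or synonym (3729), and 20977 kept the file's name.

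Group means over all 20 arrays were tested two-sided by limma 3.58.1 (R 4.3.3), with Benjamini-Hochberg adjustment over all genes (threshold 0.05, 13 residual degrees of freedom). In simulated data for this comparison (30268 genes) the fit called 0, 16, 26 and 38 of 50 genes changed by 1, 2, 3 and 4 log2 units, and 5 unchanged genes. Named were every called gene and, among genes with a symbol, the 6 higher and 6 lower measured genes and the 4 and 4 measured in one group only with the smallest p, a change of at least 1 and no overlap, the 2 members of each list with the smallest p, and a fixed panel. Members and lists were chosen with earlier results of these data known, and further list members and relatives were named after their values were seen. The number of arrays limits the precision. Python 3.11.15, pandas 2.3.3, numpy 2.4.6 and matplotlib 3.10.9 were used. Replicate numbers did not pair arrays: in 57 same-numbered pairs the median correlation of deviations was -0.04, with 12 over 0.1. Pdk4 of the panel had no tested probe. Some items are not reported here.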

Additional observations from a re-analysis of the deposited data

Results flagged for a closer look

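The genes below were singled out because diclofenac at full concentration gave a different level at 24 h than at 6 h, in a limma test of that difference over all genes. Higher at 24 h were Igtp by 3.46, Akr1c14 by 3.46, Akr1c15 by 2.29 and Thbd by 1.97. Lower at 24 h were Npw at -1.66, Flt1 at -2.57, AI168935 at -2.69, Cdh10 at -2.72 and Cabs1 at -4.19. At 6 h Igtp and Akr1c14 were at background, so these are at least 3.49-fold and 3.17-fold higher, and AI168935, Cdh10 and Cabs1 were at background at 24 h, so their sizes too are not exact (AI168935 at least 2.35-fold and Cdh10 at least 2.76-fold lower). Adjusted p-values ran from 0.00325 for Igtp to 0.0433 for Akr1c14. The probes of these 2 genes entered the test only through 24 h groups in which they were high. The 6 h arrays were on slides 1 and 2 and the 24 h arrays on slide 4, and the part of the slide in these differences cannot be told apart from time.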

How the results depend on the processing

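The results compared were the number of genes past the threshold, diclofenac 1 for 24 h against untreated, and the number of genes past the threshold, higher, and genes past the threshold, lower. With all 20 arrays the number was 1, with 0 higher and 1 lower. The count was 1 (1 higher, 0 lower) with the 5 arrays alone and after quantile normalization. The gene was Kif26b with the 5 arrays alone (by 4.69, limma adjusted p = 0.0499) and Kirrel3 after quantile normalization. The count was 2 (1 higher) on the array median and in the deposited table. It was 0 with no filter on dim probes, with probes well above background on all 5 arrays, with signals floored, with every probe tested and with a trended, robust spread. On the array median and in the deposited table the lower one was TC533759, a transcript with no gene name, also called after normexp background. In the main fit it differed by -4.88 ± 0.80, at least 11.1-fold lower. Its adjusted p was 0.0989 with all arrays and 0.0165 without the 4 weak ones. With the replicate block 0 genes passed, although replicate numbers did not pair arrays. The count was 66 with the slide as a random block (27 higher, 39 lower, correlation -0.17). Untreated and treated arrays shared no slide, so this block cannot separate slide from treatment. A negative correlation also makes the SE of a difference between slides smaller. The count was 27 without the third 1/5, 24 h array (14 higher, 13 lower), and, in an alternative chosen after seeing the data, 59 without the 4 weak arrays (26 higher, 33 lower). With array weights, whose default estimate did not converge and was replaced by the gene-by-gene one, the count was 4656 (1986 higher, 2670 lower). Leaving out 1 of the 5 arrays gave 0 to 1 genes (0 to 1 higher, 0 to 0 lower), the 1 being Igtp without the third treated array. Of 101 named genes, 10 took the other sign under at least 1 setting and 0 of those with a change of at least 1 did. Signal at background limits the dim genes: flooring moved the log2 change of Akr1c14 from 3.30 to 1.37, and normexp background that of Igtp (log2 change of Igtp) from 3.33 to 1.59.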
